A study of Homo sapiens with 9 samples.

Results

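QKI‐5 peaks were examined in 60 named genes that encode chromatin remodelling enzymes, histone modifiers and DNA methylation enzymes, out of 20163 protein‐coding gene records of GENCODE release 44 placed on hg19 (chromosomes 1 to 22, X and Y). The genes form a list of names that was not drawn up independently of these data, so its shares beside those of all genes are a description. A peak was counted for a gene when it lay on the gene's strand with its centre inside the gene's protein‐coding span. By their textbook roles the 60 genes were set in 9 groups, namely 13 SWI/SNF subunits, 3 ISWI genes, 8 CHD remodellers, 2 genes of the INO80 family, 7 histone deacetylases, 4 histone acetyltransferases, 12 histone methyltransferases and PRC2 subunits, 7 histone demethylases and 4 genes of DNA methylation. The study mapped RNA contacts of QKI‐5 by HITS‐CLIP, in which ultraviolet light fixes proteins to RNA in the living cell and the fragments bound to the protein of interest are recovered with an antibody and sequenced. The cells were mesHMLE, a mesenchymal derivative of the human mammary epithelial line HMLE obtained by prolonged exposure to TGF‐β1 (2.5 ng/ml, for no less than 14 days, in the protocol for inducing EMT) and then kept without added TGF‐β1. Cells received 600 mJ/cm2 of ultraviolet light. Libraries comprised 7 immunoprecipitates of QKI‐5 (3 from the gel region of the monomer, 3 from that of the presumptive dimer, and 1 more dimer library made with SuperScript IV) and 2 size‐matched inputs, all technical variants of the same material rather than separate cultures. There was 1 condition and no untreated arm.

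The authors pooled the libraries before peaks were called, so each peak has 1 height for all of them. What this height is computed from is not stated. Replicate error therefore cannot be given for any value, and the read depth of the libraries is not known. Shares carry 95% Wilson intervals for counting error alone. Of 24037 peaks in the list, 20913 had their centre in a protein‐coding gene on its strand.

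QKI‐5 peaks were found in most of these genes and lay mainly in their introns. At least 1 peak was present in 46 of the 60 genes (76.7%, interval 64.6 to 85.6%), against 23.6% of all protein‐coding genes. Of the 60, 25 (41.7%) had 5 or more peaks, against 6.29% of all protein‐coding genes. The 46 genes held 310 peaks, of which 280 (90.3%) were intronic, and 136 (43.9%) fell in only 8 genes: SETD5, ARID1B, KDM6A, SMARCA1, HDAC4, EHMT1, DNMT1 and CHD6. Peak height in these genes (median 22) was close to that over all coding genes (median 23). The tallest of the 310 peaks, at 231, lay in an intron of HDAC4, at a place that is also an annotated microRNA gene on the same strand.

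Chromatin remodellers use ATP to slide, evict or exchange nucleosomes. The SWI/SNF complexes open chromatin at enhancers and promoters, the ISWI and CHD enzymes space or remodel nucleosomes, and CHD3 and CHD4 also belong to the NuRD complex together with the deacetylases HDAC1 and HDAC2. Histone acetyltransferases and deacetylases add and remove acetyl groups, methyltransferases and demethylases do the same with methyl groups on histone lysines, and the DNMT and TET enzymes add methyl groups to cytosine in DNA or oxidise them. QKI‐5 is the nuclear isoform of Quaking, an RNA‐binding protein of the STAR family that recognises the sequence ACUAAC in pre‐mRNA and takes part in alternative splicing and in the formation of circular RNAs. A peak in one of these genes is thus a contact with the transcript that encodes a chromatin protein, not with chromatin.

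**Figure D1:**
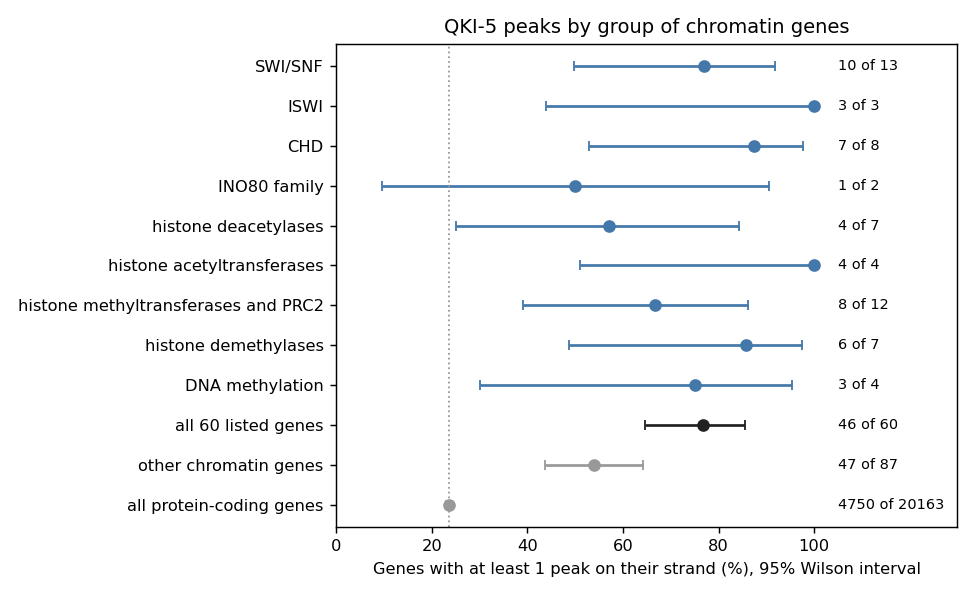
Share of genes with at least 1 QKI‐5 peak on their strand (points, in percent) with 95% Wilson intervals (bars), for the 9 groups of listed genes, all 60 listed genes, 87 other chromatin genes and all 20163 protein‐coding genes. The dotted line marks 23.6%, the share over all protein‐coding genes, and the 9 groups lie between 50.0% and 100%.

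All 9 groups held genes with peaks. The ISWI genes (3 of 3) and the histone acetyltransferases (4 of 4) each had a peak in every gene, followed by CHD remodellers (7 of 8), histone demethylases (6 of 7), SWI/SNF subunits (10 of 13), DNA methylation genes (3 of 4), histone methyltransferases and PRC2 (8 of 12), histone deacetylases (4 of 7) and the INO80 family (1 of 2). With 2 to 13 genes per group the intervals were wide (for 3 of 3 the lower bound was 43.9%), and those of the 9 groups overlapped. The number of peaks per 100 kb of summed gene span ranged from 0.746 in the INO80 family and 1.26 in the histone deacetylases to 5.76 in the histone methyltransferases and 9.65 in the ISWI genes. Density thus spanned a wider range than the share of genes with a peak, and 36 of the 88 methyltransferase peaks came from SETD5 and 14 of the 27 ISWI peaks from SMARCA1.

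The listed genes are long, and long genes had peaks more often. Their median span was 113 kb, against 27.2 kb over all protein‐coding genes. Among genes longer than 71.3 kb, 38 of 43 listed genes had a peak (88.4%, interval 75.5 to 94.9%), against 45.5% of all protein‐coding genes of that length. Between 27.2 and 71.3 kb the counts were 6 of 12 listed genes (50.0%, interval 25.4 to 74.6%) against 29.9%, and between 9.50 and 27.2 kb 2 of 5 (interval 11.8 to 76.9%) against 15.2%. No listed gene was shorter than 9.50 kb. In each of these length classes the listed share was above the share of all genes, but with 12 and 5 genes the intervals of the shorter listed genes reached below the background. As the list was not drawn up independently of these data, the difference in any class is a description and not a test. The peak files hold no expression values, and the RNA sequencing of mesHMLE cells that the paper reported was not used here. The level of these transcripts, which also bears on how often a gene yields a peak, was not tested. Once a gene had a peak, the listed genes had a median of 5 peaks against 2. Their median density was 3.83 peaks per 100 kb, against 3.75 over all protein‐coding genes with a peak. Listed genes with a peak were longer (median span 135 kb against 67.7 kb). A short gene enters such a median only with a high density, so these near values do not show an equal rate. Neither peak number nor density was compared within length classes, so whether length accounts for the difference in peak number was not tested.

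**Figure D2:**
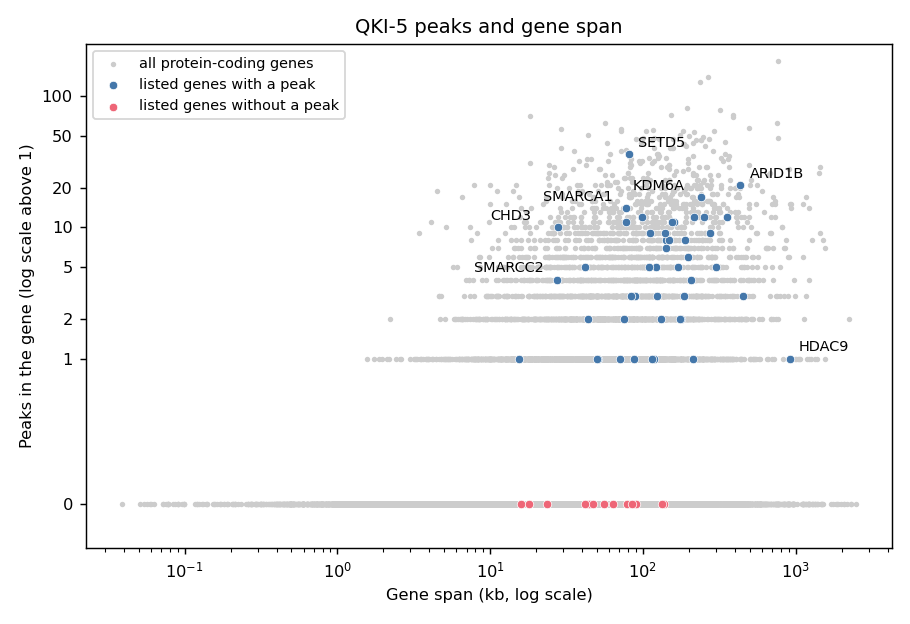
Number of QKI‐5 peaks (y axis, log scale above 1) against gene span in kb (x axis, log scale) for all protein‐coding genes (grey), listed genes with a peak (blue) and listed genes without a peak (red). SETD5 has 36 peaks in 81.6 kb, while HDAC9, the longest listed gene at 915 kb, has 1.

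The motif of QKI was read in the peaks on the strand of the gene, in its DNA form ACTAAC, from the GRCh37 sequence. It occurred in 30 of the 310 peaks (9.68%, interval 6.86 to 13.5%), against 10.5% of peaks in all protein‐coding genes. Of equally long windows placed 500 nt away, 0.968% held it on the 5′ side and 2.26% on the 3′ side. The motif was present in the peak and not in the window for 30 peaks against 3 windows on the 5′ side (exact McNemar test, two‐sided, p = 1.40e-06) and 30 against 7 on the 3′ side (p = 0.000191 in the same exact test). Peaks of 1 gene share a transcript and often lie side by side, so these p‐values treat as separate units peaks that are not independent. On the opposite strand ACTAAC occurred in 5 peaks (1.61%). Among the 465 hexamers found in at least 10 of the 310 peaks, ACTAAC ranked highest by its share in peaks over its mean share in windows (ratio 5.55), and the next 9 were rich in G, such as AGGGTC in 10 peaks (ratio 5.25) and GGGTGG in 28 (ratio 3.80). The peaks held 25.9% G against 22.1% and 21.2% in the windows on the 5′ and 3′ sides, close to the 26.1% in peaks of all coding genes.

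**Figure D3:**
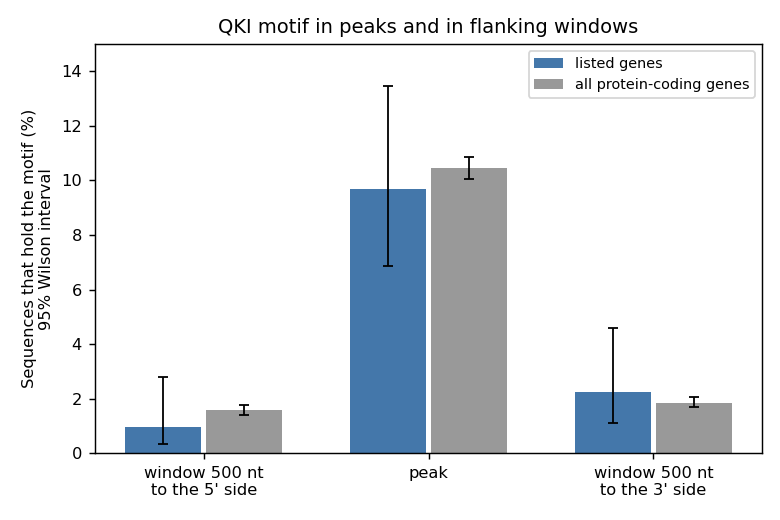
Share of sequences that hold the QKI motif (y axis, percent, bars from 0) in peaks and in windows of equal length 500 nt to the 5′ and 3′ sides, for the 310 peaks of listed genes (blue) and the 20913 peaks of all protein‐coding genes (grey), with 95% Wilson intervals. In listed genes the share is 9.68% in peaks and 0.968% and 2.26% in the windows.

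The sequences of peaks that hold the motif are shown for those of the 8 genes with most peaks that had one and for the genes whose tallest motif peak was 34 or more high, except KAT6A (34), which is not printed. SMARCA2 was added, after its values were seen, because its peak lies beside an exon that some transcripts skip. Each is written 5′ to 3′ on the strand of the gene with ACTAAC in capitals, and coordinates are on hg19. PBRM1 (chr3:52715809-52715833, minus strand) is a stretch of its peak, because this peak lies in a 5′UTR of some transcripts. The others are whole intronic peaks, in KDM5A (chr12:441864-442034, minus), KDM6A (chrX:44757967-44758029, plus), BPTF (chr17:65872143-65872276, plus), ARID2 (chr12:46173921-46173974, plus), SMARCC1 (chr3:47702169-47702218, minus), CHD6 (chr20:40239605-40239691, minus), HDAC4 (chr2:240258404-240258461, minus), ARID1B (chr6:157487301-157487389, plus), SETD5 (chr3:9473853-9473931, plus) and SMARCA2 (chr9:2076406-2076452, plus).
PBRM1: tgaatatACTAACactgaatcagca
KDM5A: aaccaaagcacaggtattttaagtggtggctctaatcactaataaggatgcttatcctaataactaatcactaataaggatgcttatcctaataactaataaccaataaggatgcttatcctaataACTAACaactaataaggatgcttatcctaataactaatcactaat
KDM6A: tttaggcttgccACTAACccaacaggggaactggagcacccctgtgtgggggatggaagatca
BPTF: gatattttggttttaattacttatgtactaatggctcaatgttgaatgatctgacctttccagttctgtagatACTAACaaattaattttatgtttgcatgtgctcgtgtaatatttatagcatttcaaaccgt
ARID2: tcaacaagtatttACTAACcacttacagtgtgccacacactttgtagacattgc
SMARCC1: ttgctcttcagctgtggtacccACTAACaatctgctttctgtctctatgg
CHD6: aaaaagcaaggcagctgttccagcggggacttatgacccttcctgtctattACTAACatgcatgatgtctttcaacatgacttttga
HDAC4: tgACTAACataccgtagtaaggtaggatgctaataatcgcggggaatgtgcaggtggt
ARID1B: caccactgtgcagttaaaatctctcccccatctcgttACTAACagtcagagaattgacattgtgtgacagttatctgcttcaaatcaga
SETD5: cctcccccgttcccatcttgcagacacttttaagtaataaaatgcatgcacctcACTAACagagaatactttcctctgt
SMARCA2: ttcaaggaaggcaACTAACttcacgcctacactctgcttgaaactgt

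The KDM5A peak stood apart among these sequences, since it consists of a repeated unit in which ACTAAC or ACTAAT occurred 8 times. No listed peak held ACTAAC more than once. Among the 30 motif copies, 21 (70.0%) began within 25 nt of the summit, against 75.4% over all coding genes. The median start was 17 nt to the 5′ side of the summit. Peaks with ACTAAC had a median height of 22.5 and those without it 22, whereas over all coding genes the medians were 27 and 23. Listed peaks with the motif had a median width of 69 nt. In so short a peak many possible starts lie within 25 nt of the summit. The 70.0% near the summit therefore cannot tell whether the motif favours it. Listed peaks with and without ACTAAC had similar median heights.

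ACTAAC occurred in most groups, at unequal shares. It occurred in 8 of 50 CHD peaks, 6 of 47 SWI/SNF peaks, 6 of 40 demethylase peaks, 4 of 21 acetyltransferase peaks, 2 of 19 deacetylase peaks, 3 of 88 methyltransferase and PRC2 peaks, 1 of 27 ISWI peaks, and none of the 16 DNA methylation peaks and 2 INO80 family peaks. The interval for 0 of 16, the peaks of DNMT1, DNMT3A and TET3, reached 19.4% and took in the 10.5% over all coding genes. That for 3 of 88 (3.41%, interval 1.17 to 9.55%) lay below this share. Peaks of 1 gene are not independent, and 36 of the 88 were in SETD5 and 12 of the 16 in DNMT1. These intervals count each peak as separate and so may understate the spread. CHD6 had the motif in 4 peaks, and CHD9 and KDM6A in 3 each. The spans of the 60 genes held 867 ACTAAC sites, of which 30 (3.46%, interval 2.43 to 4.90%) lay in a peak, against 1.52% in all protein‐coding genes. Among genes with a peak the shares were 3.83% in listed genes and 3.92% in all protein‐coding genes. Most copies of the motif in these transcripts had no peak over them, including all 133 copies in HDAC9, which had 1 peak. For the 84 copies in the 14 listed genes without a peak this holds by definition.

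By position, 280 of the 310 peaks were intronic, 17 (5.48%) lay in a 3′UTR, 10 (3.23%) in coding sequence and 3 (0.968%) in a 5′UTR of any protein‐coding transcript. Over all coding genes the shares were 85.1% intronic, 7.97% 3′UTR, 2.61% coding and 1.56% 5′UTR. A further 2.75% there lay outside the protein‐coding transcripts of the gene, a class that held no listed peak. Several peaks counted as 3′UTR lay where a shorter coding transcript ends inside an intron of the canonical one, among them 6 in NSD2, 4 in EHMT1 and 3 in SETD5. Heights ran from 6 to 231 with quartiles of 18 and 31, against 18 and 32 over all coding genes. Peaks of height 50 or more made up 9.35% (29 peaks) against 11.1%, and those of 100 or more 1.61% (5 peaks) against 3.03%. Neither the classes nor the heights of these peaks set the listed genes far apart from other genes with peaks.

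**Figure D4:**
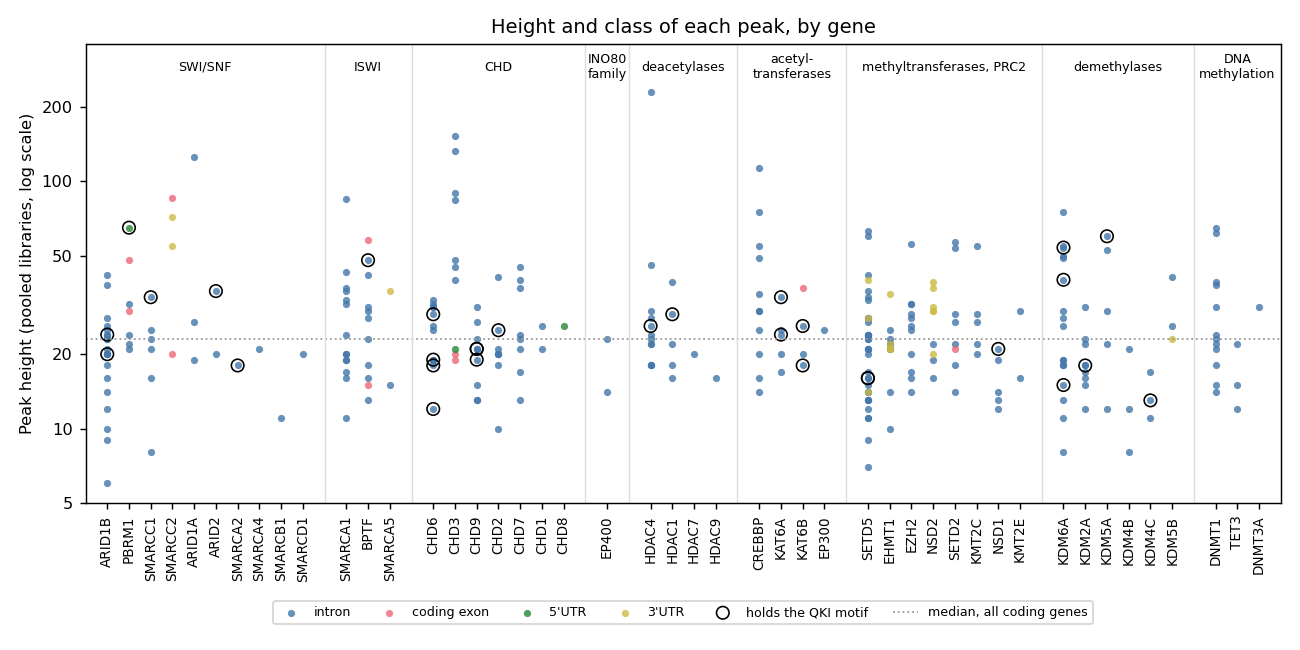
Height of each of the 310 peaks (y axis, log scale, 1 value per peak for the pooled libraries) in the 46 listed genes with a peak, grouped by role. Colours give the class of the peak, rings mark peaks that hold the QKI motif, and the dotted line is the median over all coding genes, 23. The tallest points are HDAC4 (231, also inside an annotated microRNA gene on the same strand), CHD3 (153 and 133), ARID1A (126) and CREBBP (113), none of them ringed.

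Peaks of these genes were often packed in 1 intron. Of 32 listed genes with 3 or more peaks, 21 had over 50% of them in 1 canonical intron (65.6%, interval 48.3 to 79.6%), much as among all 2053 protein‐coding genes with 3 or more peaks (62.4%). Peaks 50 nt or less apart formed 9 runs of 3 or more in 7 listed genes, and these runs held 48 peaks. Runs were counted in listed genes alone, so how common they are in other genes is not known. The longest runs were 11 peaks over 1091 nt in SETD5, 7 peaks over 763 nt in CHD3, 7 peaks over 424 nt in SMARCA1 and 6 peaks over 599 nt in KDM6A. Such neighbours may be parts of 1 wider bound region, and joining peaks within 50 nt left 235 of the 310. Intron 1 held 18.9% of the peaks in canonical introns and made up 16.2% of the intron length of listed genes with a peak, a share within the counting interval of the peaks (14.8 to 23.7%). Over all protein‐coding genes with a peak, intron 1 held 26.0% of such peaks and made up 23.9% of the intron length. Both shares were thus lower in the listed genes.

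Among the methyltransferase genes, SETD5 had the most peaks of all 60 genes. SETD5 (chr3:9439299-9520924, plus strand) encodes a SET domain protein whose loss causes a neurodevelopmental disorder. It held 36 peaks with heights from 7 to 63, or 44.1 peaks per 100 kb, and ranked 53 among all coding genes by number of peaks. Intron 18, 5.79 kb long, held 17 of them within 3.41 kb, and intron 3, 4.84 kb long, held 16 with a median height of 14.5. The remaining 3 lay in intron 1, at heights of 24, 34 and 24. Intron 18 contains a 57‐nt exon that coding transcripts can skip, and the peaks there surrounded it. Peaks of heights 13, 17 and 28 lay 198, 131 and 4 nt upstream of this exon, a peak of 33 lay 111 nt downstream of it, and the tallest peak of the gene lay 330 nt upstream. ACTAAC occurred in 2 of the 36 peaks, both in intron 3 and both 16 high.

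EHMT1 and EZH2, which deposit repressive methyl marks on histone H3, each had their peaks in few introns. EHMT1 (chr9:140513444-140764468, plus strand) had 12 peaks of heights 10 to 35, 9 of them within 3.08 kb of intron 6. The 2 peaks in its intron 1 also lay in an uncharacterised gene on the same strand. All 11 peaks of EZH2, the catalytic subunit of PRC2, lay in intron 1, with heights from 14 to 56. No peak of either gene held ACTAAC. NSD2, a methyltransferase of transcribed chromatin, had 9 peaks, 6 of them 20 to 39 high in intron 9 where a shorter transcript has its 3′UTR. SETD2, which methylates histones along gene bodies, had 8 peaks, the tallest being neighbours of 57 and 54 in intron 1. KMT2C and NSD1 had 5 peaks each and KMT2E had 2. The tallest NSD1 peak, 21 high, held ACTAAC and lay 131 nt upstream of a 144‐nt exon.

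**Figure D5:**
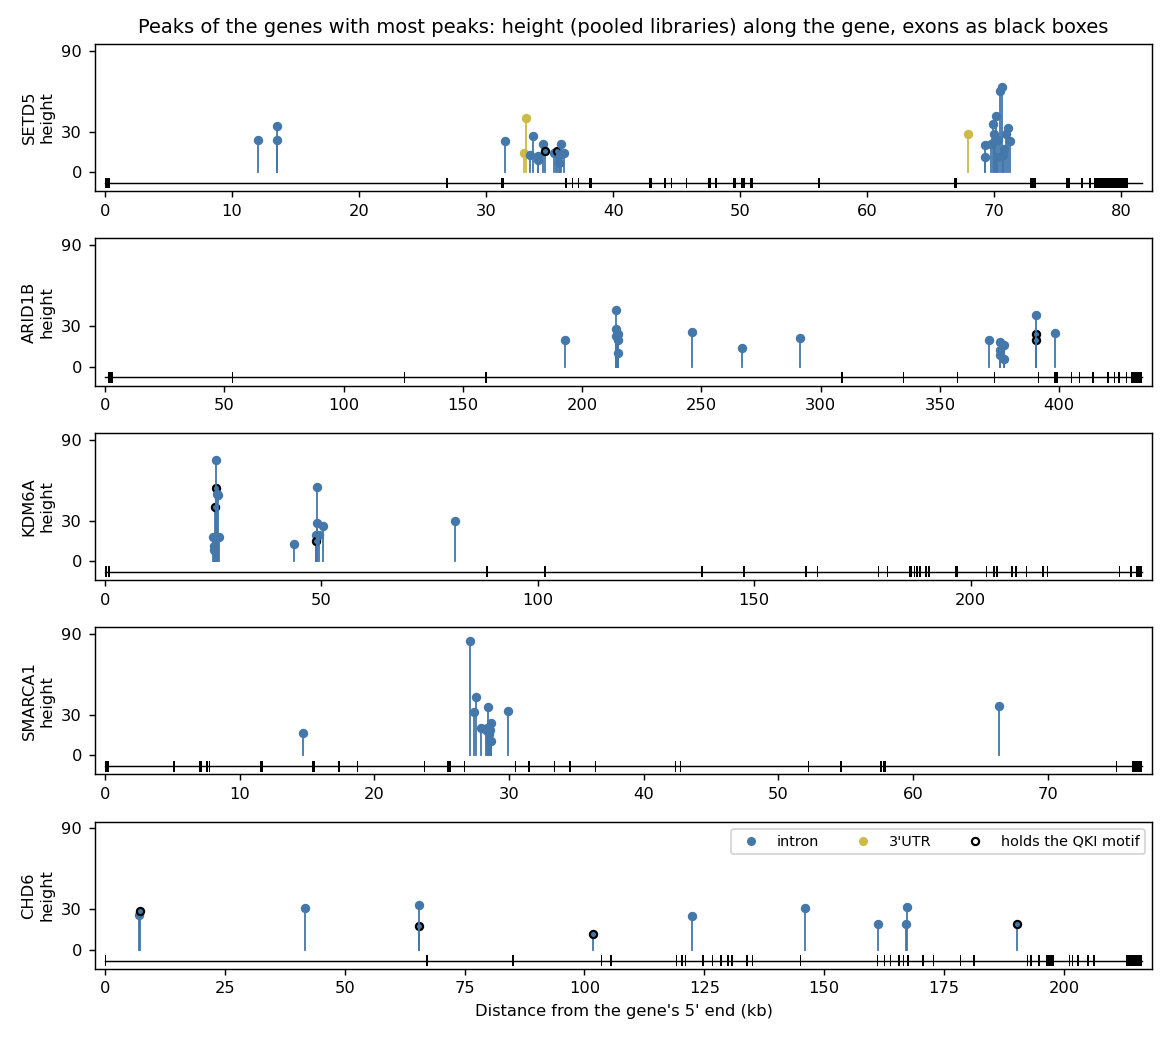
Peaks along SETD5, ARID1B, KDM6A, SMARCA1 and CHD6, a gene per panel, with distance from the gene's 5′ end in kb on the x axis and peak height (pooled libraries) on the y axis. Black boxes are exons of the canonical transcript, colours give the class of the peak and a black rim marks a peak with the QKI motif. In SETD5, KDM6A and SMARCA1 most peaks stand in 1 or 2 clusters, whereas the 12 peaks of CHD6 are spread over 7 introns.

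Of the SWI/SNF genes, ARID1B had the most peaks. ARID1B (chr6:157097154-157531913, plus strand), the DNA‐binding subunit that takes the place of ARID1A in some complexes, had 21 intronic peaks of heights 6 to 42. Intron 4, 149 kb long, held 11 of them, and intron 8 held 8. Its ACTAAC peaks, 24 and 20 high, were neighbours in intron 8, in a run of 3 that covered 235 nt and ended in a peak 38 high without the motif. Another intron 8 peak, 18 high, lay 232 nt downstream of a 129‐nt exon that coding transcripts can skip. ARID1A itself had only 3 peaks, all within 553 nt of intron 1, with heights of 19, 126 and 27, so the paralogue with fewer peaks had the taller one.

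PBRM1, ARID2 and SMARCC1 each had ACTAAC in their tallest peak. PBRM1, the bromodomain subunit of the PBAF complex, had 7 peaks. Its tallest, 65 high, lay in intron 1 of the canonical transcript and in a 5′UTR of another. Peaks of 48 and 30 lay in coding exon 29, and 4 more surrounded a 165‐nt exon that coding transcripts can skip, 316 nt upstream (height 32) and 772, 841 and 1100 nt downstream (heights 24, 21 and 22). ARID2, also of PBAF, had 2 peaks, of which the one with the motif was 36 high and 31254 nt from the nearest splice site. SMARCC1, a core scaffold subunit, had 6 peaks of heights 8 to 34.

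The ATPases of SWI/SNF had few peaks. SMARCA2 and SMARCA4 had 1 each, of heights 18 and 21. The SMARCA2 peak held ACTAAC and lay 100 nt downstream of a 101‐nt exon that coding transcripts can skip, in intron 13. It was 1 of only 2 listed intronic peaks with the motif within 250 nt of a splice site, the other being that of NSD1. SMARCD1 had a peak of 20 placed 52 nt downstream of a 123‐nt skippable exon, and SMARCB1 a peak of 11. SMARCC2, the paralogue of SMARCC1, was the exception in class, since its 4 peaks were all exonic, with heights of 86 and 20 in coding exon 28 and 55 and 72 in the 3′UTR. All 4 also lay in a second annotated gene on the same strand, so they cannot be told apart from peaks of that transcript. BRD7, BRD9 and SMARCE1 had no peak.

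In the ISWI group, SMARCA1 and BPTF had the most peaks. SMARCA1 (chrX:128580478-128657477, minus strand), an ISWI ATPase, had 14 peaks, or 18.2 per 100 kb. Intron 12, 3.67 kb long, held 12 of them, led by a peak of 85 that lay 346 nt downstream of a 122‐nt exon, and the heights of the others in that intron ran from 11 to 43. No SMARCA1 peak held ACTAAC, though its span has 12 copies. All 11 peaks of BPTF, the largest subunit of the NURF complex, lay in canonical intron 4, where other coding transcripts carry a 189‐nt exon. Peaks of 15 and 58 had their centres in that exon, and peaks of 30, 16 and 48 followed 128, 180 and 349 nt downstream, the last of these with ACTAAC. SMARCA5, the other ISWI ATPase, had 1 intronic peak of 15 and 1 peak of 36 in its 3′UTR.

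The CHD genes ranged from none to 12 peaks. CHD6 (chr20:40030723-40247023, minus strand) had 12 intronic peaks with heights between 12 and 33. Its 4 ACTAAC peaks, 29, 18, 12 and 19 high, were in introns 1, 1, 3 and 27, and it was the listed gene with the most such peaks. A CHD6 peak of 19 was centred 6 nt downstream of a 165‐nt skippable exon, and peaks of 19 and 32 lay 160 and 90 nt upstream of a 160‐nt exon. CHD9, its close paralogue, had 9 peaks, 3 with ACTAAC. CHD2 and CHD7 had 8 each, with tallest heights of 41 and 45, and CHD1 had 2.

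CHD3 and CHD4, the paralogous ATPases of NuRD, stood at 10 peaks and none. The span of CHD3 is 28.0 kb, which gives 35.8 peaks per 100 kb. A run of 7 covered 763 nt of intron 37, itself 1.09 kb long, with heights in 5′ to 3′ order of 90, 48, 45, 40, 153, 133 and 84. No CHD3 peak held ACTAAC, and its span has 1 copy. CHD4, of 44.4 kb, had no peak. CHD8, a remodeller linked to autism, had 1 peak, 26 high. In the INO80 family, EP400 had 2 peaks, of 14 and 23, and INO80 had none.

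The deacetylases were led by HDAC4. HDAC4 (chr2:239969864-240323348, minus strand), a class IIa enzyme, had 12 intronic peaks, 7 of them in the 116 kb of intron 2 with heights between 18 and 30, including an ACTAAC peak of 26. Its peak of 231 in intron 22, 253 nt upstream of a 119‐nt exon, exceeded all other listed peaks, and the next tallest of the gene was 46. The centre of the 231 peak also lies in the annotated microRNA gene MIR4440 on the same strand, so the host intron and the microRNA transcript cannot be told apart there. HDAC1, a NuRD deacetylase, had 5 peaks, with 39 and 16 lying 106 and 151 nt downstream of exons and an ACTAAC peak of 29 in intron 3. HDAC7 and HDAC9 had 1 peak each, of 20 and 16. HDAC2, HDAC3 and HDAC5 had none.

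All acetyltransferase genes had a peak. CREBBP, a transcriptional coactivator, had 11 intronic peaks in 7 introns. Intron 19 held 5, with heights in 5′ to 3′ order of 75, 113, 20, 14 and 16, of which the last 3 lay 245, 168 and 71 nt upstream of the next exon, and a peak of 30 followed 142 nt downstream of that exon. EP300, its paralogue, had 1 peak, 25 high. KAT6A had 5 peaks, and its tallest, 34 high, held ACTAAC. KAT6B had 4, of which 2 held ACTAAC.

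Among the demethylases, KDM6A had the most peaks. KDM6A (chrX:44732434-44972024, plus strand), which removes the methyl mark laid down by PRC2, had 17 peaks, all in intron 2 and spread over 55.8 kb of it. Heights ran from 8 to 75. A run of 6 over 599 nt held the tallest peak and 2 of the 3 ACTAAC peaks, which were 40, 54 and 15 high, and the nearest splice site to any KDM6A peak was 7335 nt away. KDM5A had 4 of its 5 peaks in intron 12, 1.55 kb long, in the order 53, 12, 60 and 30, the third being the peak with the repeated unit. KDM2A had 9 peaks up to 31 high, KDM5B, KDM4B and KDM4C had 3 each, and KDM3B had none.

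Of the genes of DNA methylation, only DNMT1 had more than 3 peaks. DNMT1 (chr19:10244018-10341962, minus strand), the maintenance methyltransferase, had 12, with 8 in intron 1. The tallest, 65 high, was in that intron, and a peak of 39 lay 80 nt downstream of a 94‐nt exon that some coding transcripts lack. A peak of 62 lay outside the canonical transcript and inside S1PR2 on the same strand. DNMT3A, a de novo methyltransferase, had 1 peak of 31, TET3 had 3 of 12, 15 and 22, and TET2 had none.

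None of the 5 listed peaks of height 100 or more carried ACTAAC. Over all coding genes 10.5% of peaks of any height held it, so 5 peaks are too few to set apart. The share among equally tall peaks of all coding genes was not computed. The tallest intronic peaks of HDAC4 (chr2:239990503-239990610, minus strand, height 231), CHD3 (chr17:7813172-7813252, plus strand, 153), ARID1A (chr1:27039863-27039906, plus strand, 126) and CREBBP (chr16:3803005-3803111, minus strand, 113) are printed on the strand of the gene. They were chosen after their values were seen, and no capitals appear because ACTAAC is missing from them. The CREBBP sequence does hold the variant ACTAAT, which is left in lower case.
HDAC4: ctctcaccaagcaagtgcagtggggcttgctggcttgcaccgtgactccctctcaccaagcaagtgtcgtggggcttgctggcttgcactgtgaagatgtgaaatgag
CHD3: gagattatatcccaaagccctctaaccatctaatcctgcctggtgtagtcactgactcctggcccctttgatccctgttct
ARID1A: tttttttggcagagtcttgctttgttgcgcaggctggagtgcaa
CREBBP: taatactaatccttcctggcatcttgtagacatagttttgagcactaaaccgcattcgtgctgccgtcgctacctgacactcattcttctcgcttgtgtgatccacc

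In 7 listed genes ACTAAC was found in the tallest peak, namely PBRM1, KDM5A, ARID2, SMARCC1, KAT6A, NSD1 and SMARCA2, with heights of 65, 60, 36, 34, 34, 21 and 18. How often the tallest peak of a gene holds ACTAAC over all coding genes was not computed. Whether 7 is many or few is therefore not known. With only the tallest peak of each of the 46 genes, the motif was in 7 peaks against 1 window on the 5′ side (exact McNemar test, two‐sided, p = 0.0703), which misses the threshold of 0.05, and against none on the 3′ side (p = 0.0156, exact).

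Most intronic peaks of listed genes were far from exons. The median distance from the centre to the nearest splice site of a coding transcript was 1877.5 nt, against 2221 nt over all coding genes. Of the 280 intronic peaks, 30 (10.7%, interval 7.61 to 14.9%) lay within 250 nt, 157 between 250 and 5000 nt, and 93 (33.2%) farther away, and the share within 250 nt over all coding genes was 11.0%. Of the 30 near peaks, 18 lay downstream of the exon (58.6% over all coding genes) and 12 lay beside an exon that a coding transcript lacks (40.0%, interval 24.6 to 57.7%, against 46.5%). These 12 belonged to SETD5, BPTF, ARID1B, SMARCA2, SMARCD1, CHD6, HDAC4 and DNMT1. No splicing values are part of these files, and whether the exons change with QKI‐5 was not tested.

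The 14 genes without a peak were BRD7, BRD9 and SMARCE1 of SWI/SNF, CHD4, INO80, HDAC2, HDAC3, HDAC5, the methyltransferases KMT2A, KMT2D and EHMT2, the PRC2 subunit SUZ12, the demethylase KDM3B and TET2. Their median span was 51.2 kb, against 135 kb for the listed genes with a peak. Of these 14, 5 were nevertheless longer than 71.3 kb: INO80 (137 kb, 11 ACTAAC sites), TET2 (134 kb, 20 sites), KMT2A (90.4 kb, 11 sites), KDM3B (84.3 kb, 7 sites) and HDAC2 (78.3 kb, 10 sites). The median number of ACTAAC sites per gene was 4.5 in the genes without a peak and 11.5 in those with one, while the density of sites was 9.58 and 10.2 per 100 kb. In each of the related pairs EHMT1 and EHMT2, CHD3 and CHD4, HDAC1 and HDAC2, and TET3 and TET2 the former gene had peaks and the latter had none, pairs picked after their values were seen. Whether genes without a peak lacked binding or were too weakly covered is not known from the list, which holds only positions above the calling threshold.

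On the opposite strand, 28 peaks lay in the spans of 2 listed genes, 3.33% of the 60 against 4.93% of all protein‐coding genes. KMT2E had 26 of these, 24 of them inside the long noncoding RNA gene LINC01004 and up to 61 high, while KMT2E itself had 2 peaks on its own strand, 30 and 16 high. HDAC9 had the other 2, of heights 23 and 45. Peaks on the strand of the gene were seldom shared with another gene: 10 of the 310 had their centre in a further annotated gene on that strand as well.

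In a wider list of 87 other chromatin genes, 47 had a peak (54.0%, interval 43.6 to 64.1%), against 23.6% of all protein‐coding genes and 76.7% of the listed genes. Their median span was 52.1 kb. Above 71.3 kb, 24 of 35 had a peak (68.6%, interval 52.0 to 81.4%), against 88.4% of the listed genes (interval 75.5 to 94.9%), and between 27.2 and 71.3 kb 16 of 29 did (55.2%, interval 37.5 to 71.6%), against 50.0%. In both length classes the intervals of the lists overlapped. Among those with the most peaks were the methyltransferase DOT1L (20 peaks, tallest 103), the Polycomb‐associated ASXL1 (17), the deacetylase HDAC8 (16), and JMJD1C, a demethylase family member, and the corepressor NCOR1 (14 each). Only SETD5 and ARID1B of the 60 listed genes had more peaks than DOT1L.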

How the data were processed

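HITS‐CLIP libraries of QKI‐5 were made from mesHMLE cells. Per the labels and the study's methods, the authors trimmed reads (cutadapt 1.3), mapped them to hg19 (TopHat2 2.0.10), removed duplicates by their molecular barcodes, dropped poorly mapped reads, pooled libraries and called peaks per strand against size‐matched input (MACS2 2.1.1.20160309). The height of each peak is a deposited value of unstated origin, whole and pooled over libraries, and was used only to describe and rank peaks. It is not a count per sample, and depth per library is unknown.

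Gene models were GENCODE release 44 on GRCh37, whereas the authors mapped with an iGenomes annotation. Peaks were placed by their centre in the first of coding exon, 5′UTR, 3′UTR and intron over protein‐coding transcripts. A canonical intron is one of the Ensembl canonical transcript, and a skippable exon one that falls in an intron of another coding transcript. Peak starts were counted from 1. Motif presence was tested against windows of equal length with an exact McNemar test (two‐sided). The genes, groups and the list of other chromatin genes were chosen with earlier results of these data known. Described in full were the 8 genes with most peaks, the 5 with the tallest peak and those with ACTAAC in their tallest peak, and other values serve to account for each gene. A gene of the list of other chromatin genes is not reported here by name. Scripts were tested on simulated data. Python 3.11.15, scipy 1.17.1, pysam 0.24.0, matplotlib 3.10.9 and samtools 1.23.1 were used. Alternatives covered overlap, height, annotation, merging, motif and window distance.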

Additional observations from a re-analysis of the deposited data

How the results depend on the processing

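The number of listed genes with a peak fell from 46 to 28 when only peaks at or above the upper quartile of height were kept, against 10.1% of all protein‐coding genes, and was 36 at or above the median height (17.4%), 37 with at least 2 peaks (14.3%), 45 without peaks shared with another gene on the strand (20.6%), SMARCC2 being lost, and 46 with overlap (23.6%). The intronic share was 95.8% with canonical transcripts alone and 76.5% with all transcript types, which include exons of noncoding transcripts. The median height was 36 with the tallest peak per gene. ACTAAC or ACTAAT occurred in 13.9% of peaks, against 14.3% over all coding genes. ACTAAC alone occurred in 9.80% of listed peaks at or above the median height, against 13.3% over all coding genes. Within 25 nt either side of the summit the shares were 7.10% and 8.43%, and with 25 nt added to each side of the peak 12.9% and 12.8%. The side of the windows with the larger p was kept for each setting. With the tallest peak per gene (46 peaks) that was the 5′ side, with a ratio of peaks to windows of 5.00 (exact McNemar test, p = 0.0703), and the 3′ side gave 15.0 (exact p = 0.0156). By the same choice of side the ratio was 4.07 in the main test and 3.22 to 11.8 in the other settings, each with p below 0.05, and the side left out gave up to 19.7. The share of intronic peaks near an exon was 6.40% with canonical transcripts, 3.57% within 100 nt and 20.7% within 500 nt. Joining peaks within 50 nt left 235 of 310. No paired analysis was possible because the libraries were pooled before peaks were called. Depth limits what an absent peak means, since a weakly covered transcript may hold no region above the calling threshold.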
